A study of Mus musculus with 23 samples.

Results

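Galectins are lectins that bind β-galactose at the ends of glycan chains on glycoproteins and glycolipids. They are made without a signal peptide in the cytosol, leave the cell by an unconventional route and cross-link glycoproteins at the cell surface, and some of them also mark damaged vesicles from the cytosolic side. Prototype galectins (galectin-1 and galectin-2) have a single type of carbohydrate-recognition domain and work as dimers, galectin-3 joins its domain to a long collagen-like tail, and tandem-repeat galectins (galectin-4, galectin-8 and galectin-9) carry a pair of different domains in the same chain. In β cells galectins are best known for holding the glucose transporter GLUT2 at the surface through its branched N-glycans. Described here are the 6 galectin genes Lgals1, Lgals2, Lgals3, Lgals4, Lgals8 and Lgals9, which are 6 of the 20599 genes of the expression table, and they were picked by symbol because Lgals2 is lost in both knockout lines. The Lgals2 values in both comparisons with WT are therefore a description and carry no test, and those of the other 5 were known when the family was listed.

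RNA was sequenced from β-TC6 cells, a mouse insulinoma line that makes insulin, in 3 WT libraries, 3 libraries of Bmal1-/- cells and 3 libraries of Clock-/- cells, all taken at low passage from wells grown alike. Bmal1 encodes the partner of CLOCK in the E-box-binding activator of the circadian clock. The Bmal1-/- cells lack exon 8 and came through neomycin selection, the Clock-/- cells lack exons 6 to 7 and came through puromycin selection, and each line is 1 hand-picked clone of edited cells. A difference between a knockout and WT can therefore not be told apart from a difference between clones, and the p-values measure only the spread between wells. DNA occupancy of THRAP3, an RNA-binding protein with roles in splicing and transcription, was mapped by ChIP-seq in 2 WT and 2 Bmal1-/- libraries. Gene-level values do not check the deletions, since most of each transcript lies outside the deleted exons. Arntl, the gene symbol of Bmal1, averaged 3.79 ± 0.378 TPM in WT cells against 3.42 ± 0.104 in Bmal1-/- and 13.3 ± 2.78 in Clock-/- cells, and Clock was at 45.8 ± 4.48, 34.2 ± 2.92 and 36.9 ± 9.32 (SD, n = 3).

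Levels are given as TPM, a measure scaled for both transcript length and sequencing depth that can be compared between genes. TPM times exon length came out as whole numbers of reads, which gave 9479561 to 19750523 reads per library over 15767 genes and the read counts quoted below. Reads are not independent molecules, so intervals from them cover counting error only. The cells carried most β-cell markers as labelled. The 20 β-cell identity genes had summed levels of 61276 to 63667 TPM in WT, 45522 to 48825 in Bmal1-/- and 38895 to 44476 in Clock-/- libraries, but Ins1 fell in Clock-/- cells from 2307 ± 45.3 to 61.0 ± 3.17 TPM and Ucn3 averaged 0.0456 TPM there. Of these 20 genes 4 rose and 7 fell in Bmal1-/- cells, where 18.4% of all genes rose and 21% fell. For Clock-/- cells 6 rose and 9 fell, where 9.5% rose and 14.4% fell. Nkx6-1 averaged 265, 647 and 505 TPM in WT, Bmal1-/- and Clock-/- cells. Among other islet hormones, Gcg averaged 476, 52.2 and 1225 TPM and Sst 88.0, 20.5 and 341 TPM in the same order. Markers of cells known for galectins were mixed. Of 11 fibroblast and stromal markers 5 were in the table and all 5 stayed under 1 TPM in every library, with sums of up to 1.61 in WT, 0.392 to 0.511 in Bmal1-/- and 0.445 to 0.715 in Clock-/- libraries. Of 14 macrophage and leukocyte markers 7 were in the table. Ptprc, Adgre1 and Lyz2 reached at most 0.125, 0.311 and 0.319 TPM in any library, while C1qa reached 198 TPM and Cd68 22.2 TPM. The summed macrophage list was 184 to 208 TPM in WT, 68.4 to 80.4 in Bmal1-/- and 69.4 to 83.1 in Clock-/- libraries, and nearly all of it was C1qa and Cd68. Among epithelial markers Krt8 averaged 129, 13.0 and 51.9 TPM, Cdx2 18.3, 2.62 and 13.0 TPM and Tff3 19.0, 14.7 and 3.62 TPM, each in the order WT, Bmal1-/- and Clock-/-. Epcam went the other way in Clock-/- cells, at 4.80, 0.812 and 17.9 TPM in the same order. Of 6 duct markers tested 6 fell in Bmal1-/- cells, where 21% of all genes fell. In Clock-/- cells 2 rose and 4 fell, where 9.5% of all genes rose and 14.4% fell. The part of these markers in the galectin results was not tested.

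The galectin RNA of WT cells was mostly Lgals2. The 6 genes summed to 255 ± 1.46 TPM in WT (SD, n = 3), of which Lgals2 made up 83.9 ± 0.929% and Lgals8 14.0 ± 0.899%. In the knockouts the sum was 31.9 ± 3.13 TPM in Bmal1-/- and 36.9 ± 5.73 TPM in Clock-/- cells. There Lgals8 was the main galectin, at 81.1 ± 1.90% in Bmal1-/- and 83.1 ± 3.25% in Clock-/- cells. Without Lgals2 the sums were 38.2 to 42.8 TPM in WT, 25.5 to 31.1 in Bmal1-/- and 31.4 to 43.1 in Clock-/- libraries. The range of this sum in Bmal1-/- cells lay below WT, as held for 35.1% of all tested genes, and that in Clock-/- cells overlapped WT. The sum was mostly Lgals8, so it does not speak for the other galectins, of which Lgals3 and Lgals4 in Bmal1-/- cells overlapped WT.

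**Figure D1:**
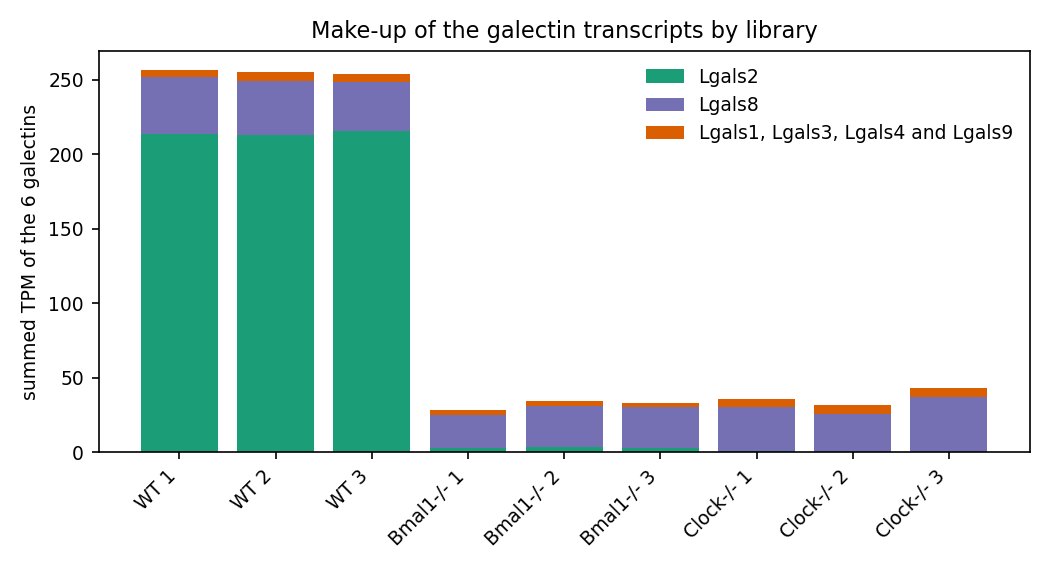
Stacked bars give the summed TPM of the 6 galectins in each of the 9 RNA libraries (x axis, genotype and replicate), split into Lgals2, Lgals8 and the other 4. The 3 WT bars stand near 255 TPM and are mostly Lgals2, while the 6 knockout bars lie between 28.4 and 43.1 TPM and are mostly Lgals8.

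The promoters of the galectin that was lost and of the galectin that remained are shown to place them. Lgals2 lies on chromosome 15 from 78850860 to 78855529 on the minus strand of mm10, and Lgals8 on chromosome 13 from 12439415 to 12464944, also on the minus strand. Each sequence is 300 bases from RefSeq on GRCm38.p6, which shares its coordinates with mm10, and runs from 250 bases before the annotated RefSeq start to 50 after it, 5′ to 3′ on the gene's strand, with CpG dinucleotides in capitals. The first is chr15:78855480-78855779 and the second chr13:12461689-12461988. The Lgals8 window lies inside the annotated gene, since its RefSeq start is downstream of the most upstream annotated start. Distances of THRAP3 peaks below are from the most upstream start unless stated otherwise.
Lgals2: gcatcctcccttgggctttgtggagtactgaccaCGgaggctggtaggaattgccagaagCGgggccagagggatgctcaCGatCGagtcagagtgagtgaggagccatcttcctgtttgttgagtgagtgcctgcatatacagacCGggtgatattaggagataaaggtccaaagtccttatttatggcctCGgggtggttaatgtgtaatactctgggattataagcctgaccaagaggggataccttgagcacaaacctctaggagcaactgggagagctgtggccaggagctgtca
Lgals8: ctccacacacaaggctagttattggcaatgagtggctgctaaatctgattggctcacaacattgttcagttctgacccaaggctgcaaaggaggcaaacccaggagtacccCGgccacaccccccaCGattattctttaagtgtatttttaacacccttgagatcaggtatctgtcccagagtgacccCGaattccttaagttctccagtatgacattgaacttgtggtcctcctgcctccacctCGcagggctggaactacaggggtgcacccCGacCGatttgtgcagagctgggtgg

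Both promoters held 6 CpG dinucleotides, near the median of 7 over the 32851 RefSeq promoters of this length, and their GC content was 52.0% for Lgals2 and 51.7% for Lgals8 against a median of 52.7%. The promoters of Lgals2, Lgals3, Lgals4, Lgals8 and Lgals9 were searched on both strands for the E-box CACGTG, the E′-box CACGTT, the D-box TTATGTAA, the AP-1 letters TGACTCA and the TATA letters TATAAA. None of these letters was in any of the 5 windows. Over all promoters the shares with a match were 7.15% for the E-box, 4.68% for the E′-box, 0.938% for the D-box, 5.2% for AP-1 and 13.6% for TATA. A window without these letters says nothing about binding elsewhere. Lgals3 had the most CpG-rich window of the 5, with 18 CpG dinucleotides and 67.0% GC (chr14:47373610-47373909). Its RefSeq start, like that of Lgals8, lies downstream of the most upstream annotated start.

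Lgals2 encodes galectin-2, a prototype galectin best known from the epithelium of the gut. It was at 214, 213 and 215 TPM in the WT libraries, 2.87, 3.15 and 3.07 TPM in the Bmal1-/- libraries and 0.552, 0.342 and 0 TPM in the Clock-/- libraries. All 6 knockout libraries were far below all 3 WT libraries, and the 3 Clock-/- libraries were below the 3 Bmal1-/- libraries. In reads these levels were 795, 736 and 697 for WT, but 12, 17 and 11 for Bmal1-/- and 2, 1 and 0 for Clock-/- libraries. Scaled by depth, Lgals2 reads in Bmal1-/- cells were 1.41% of WT, with an exact 95% interval of 1.01% to 1.93% (Clopper-Pearson). In Clock-/- cells the 3 reads came to 0.154% of WT, with an exact 95% interval of 0.0318% to 0.451%. On the log2(TPM + 1) scale Lgals2 differed from WT by -5.74 (SE 0.15) in Bmal1-/- cells and by -7.40 (SE 0.15) in Clock-/- cells, and with 0.1 added in place of 1 these differences were -6.10 and -9.45. Ranked by TPM among all genes, Lgals2 stood between places 768 and 799 in WT and between 11464 and 11533 in Bmal1-/- libraries. In bulk RNA, fewer cells with the transcript and less of it per cell cannot be told apart.

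**Figure D2:**
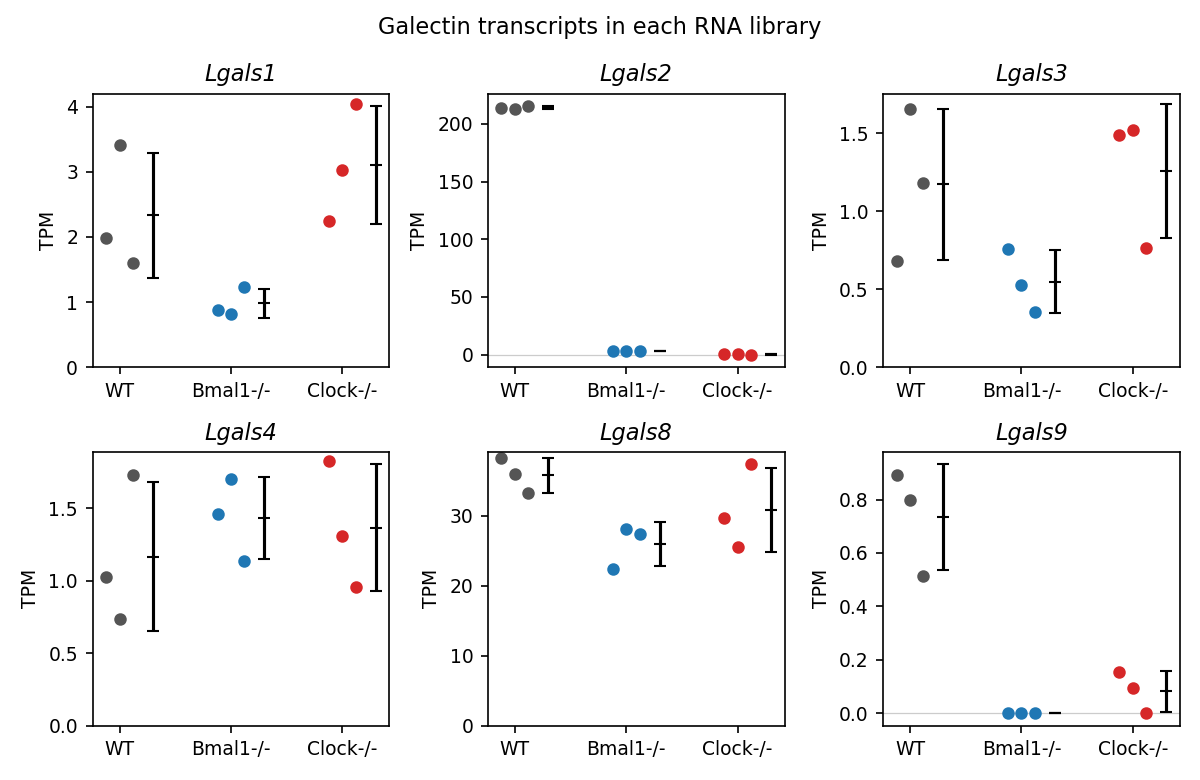
Each panel gives 1 galectin, with TPM on a linear y axis, 1 point for each of the 3 libraries of a genotype and the mean with its SD as the black bar. Lgals2 fell from 213 to 215 TPM in WT to under 3.2 TPM in every knockout library, while Lgals8 stayed between 22.4 and 38.2 TPM.

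The genes picked for a pattern most like Lgals2 were, by that choice, lower than WT in both knockouts in the same order. By Pearson correlation of log2(TPM + 1) over the 9 libraries, among 7577 genes with a mean of at least 20 TPM in their highest genotype, the closest 5 were Necab2 (r = 0.998), Resp18 (0.997), Pdzk1 (0.996), Gsdma (0.994) and Aard (0.994). The 9 libraries fall into 3 genotypes, so these values say only that the genotype means are spaced in nearly the same proportion on the log2 scale and the wells are tight. Necab2, a neuronal calcium-binding protein gene, had means of 75.3, 2.93 and 0.915 TPM in WT, Bmal1-/- and Clock-/- cells. Pdzk1, which encodes a scaffold for membrane transporters, had 27.7, 2.45 and 0.710 TPM, and Gsdma, of the gasdermin family, had 33.7, 2.15 and 1.13 TPM. Aard went from 274 TPM in WT to 12.1 and 2.46 TPM. Resp18, which encodes a protein of the endocrine secretory pathway, followed the order over a far smaller range, from 1424 to 780.0 and 674 TPM.

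Lgals2 and Lgals1 are neighbours, with starts 71.2 kb apart on chromosome 15. Most genes around them were lower in both knockouts, on a chromosome that was itself shifted down. Within 250 kb of either start lay 18 genes of the table, of which 14 besides Lgals2 were tested. In Bmal1-/- cells 10 of these 14 fell and 0 rose at an adjusted p under 0.01 (limma), where 21% of all genes fell and 18.4% rose, and their median log2 difference was -0.53 against -0.04 over all genes. In Clock-/- cells 9 fell and 0 rose, where 14.4% of all genes fell and 9.5% rose, and the median was -0.35 against -0.02. The 547 tested genes of chromosome 15 as a whole had medians of -0.25 and -0.28, so a lower level was not particular to this stretch. The Clock-/- median of the stretch was close to that of the chromosome. The counts of genes that fell were not set against a share for chromosome 15 alone. When each chromosome's median was subtracted, Lgals2 differed from WT by -5.49 in Bmal1-/- cells.

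The 4 genes next to the 3′ side of Lgals2 had almost no reads in either knockout. Cdc42ep1 (start 12.9 kb away, on the opposite strand), Card10 (52.5 kb), Mfng (82.1 kb) and Elfn2 (136.8 kb) were each listed at 0 in all 3 Bmal1-/- libraries. Card10, a scaffold of NF-κB signaling, had 125 reads over the WT libraries, 0 over the Bmal1-/- and 2 over the Clock-/- libraries, and its log2 difference from WT was -1.28 (SE 0.14, adjusted p = 3.9e-05) and -1.24 (SE 0.14, adjusted p = 8.5e-05). Mfng, a glycosyltransferase that elongates fucose on Notch, had 120, 0 and 1 reads and log2 differences of -1.73 (SE 0.17, adjusted p = 2.3e-05) and -1.70 (SE 0.17, adjusted p = 4.5e-05). Cdc42ep1 and Elfn2 were too low to test, at means of 0.249 and 0.265 TPM in WT. These 4 genes were low in WT as well, so Lgals2 was the abundant gene of the run. Whether the clones share a change of the DNA or chromatin over this stretch was not tested, and the Lgals2 values carry the same limit. The annotated ends of Lgals2 and Cdc42ep1 overlap slightly, and whether reads were counted by strand is not given in the sources used here.

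On the other side all genes tested kept reads in both knockouts. Gm10863, too low to test and with its start 310.5 kb from that of Lgals2, averaged 0.817 TPM in WT cells. It was at 0 in Bmal1-/- and 0.734 TPM in Clock-/- cells. Gga1, whose product sorts cargo at the trans-Golgi and whose start lies 21.7 kb from that of Lgals2, was at 81.8, 56.7 and 57.8 TPM in WT, Bmal1-/- and Clock-/- cells (log2 differences -0.52, adjusted p = 0.0020, and -0.50, adjusted p = 0.0042). Sh3bp1 was at 31.6, 27.8 and 25.6 TPM and did not pass in either knockout (adjusted p = 0.129 and 0.0287). Nol12 fell by 1.23 on the log2 scale in Bmal1-/- cells (adjusted p = 4.3e-06) and by 0.43 in Clock-/- cells (adjusted p = 0.0053), and Gcat fell by 1.36 (adjusted p = 1.3e-06) and by 0.40 (adjusted p = 0.0050). The difference between the 2 sides of Lgals2 was seen in the values and was not tested.

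**Figure D3:**
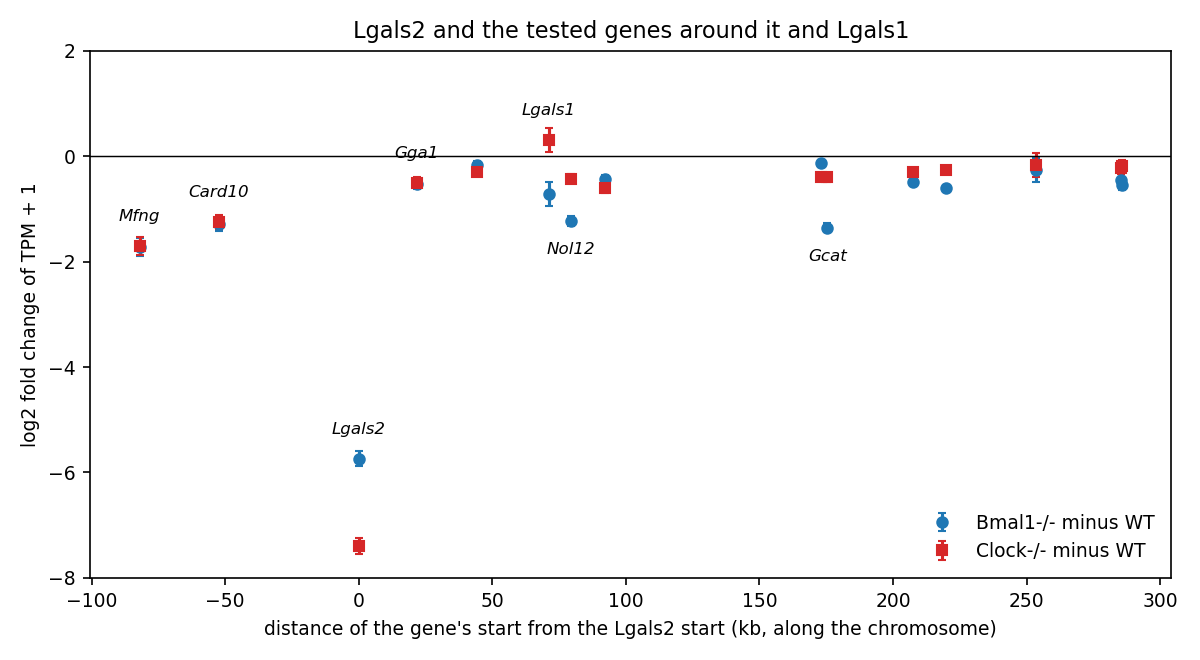
Points give the log2 difference of TPM + 1 from WT with its SE for Lgals2 and the 14 tested genes around Lgals2 and Lgals1, in Bmal1-/- (circles) and Clock-/- cells (squares), against the distance of each start from the Lgals2 start in kb. Lgals2 lies at -5.74 and -7.40, and the other genes between -1.73 and 0.31. Card10 and Mfng, at 1.43 and 2.37 TPM in WT, lie near the lowest value this scale allows them. They had 125 and 120 reads over the WT libraries and 0 over the Bmal1-/- libraries.

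Among the 6 galectins described here, none of those tested besides Lgals2 changed against WT at an adjusted p under 0.01. Of the 6 genes 5 passed the filter on low values (1 TPM or more in 3 or more of the 9 libraries), and Lgals9 did not. Leaving out Lgals2, 0 of 4 rose or fell in Bmal1-/- cells, where 39.4% of all 15031 tested genes did, and 0 of 4 in Clock-/- cells, where 23.9% did (limma). With an absolute log2 difference above 1 also required, the shares of all genes were 11.8% and 7.4%, and 14.5% between the knockouts. At an unadjusted p under 0.05 the count was 2 in Bmal1-/- cells, Lgals1 and Lgals8, and 0 in Clock-/- cells. The median log2 difference of the 4 was -0.46 in Bmal1-/- and 0.10 in Clock-/- cells. With limma-voom on the recovered reads 2 of these genes besides Lgals2 passed in Bmal1-/- cells, Lgals8 and Lgals9, and 1 passed in Clock-/- cells, Lgals9.

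Lgals8 encodes a tandem-repeat galectin that recognizes glycans exposed on damaged vesicles. It was at 38.2, 36.0 and 33.2 TPM in WT, 22.4, 28.1 and 27.3 TPM in Bmal1-/- and 29.6, 25.5 and 37.4 TPM in Clock-/- libraries. All 3 Bmal1-/- libraries were below all 3 WT libraries, as was the case for 35.1% of all tested genes, while the Clock-/- libraries overlapped WT. The log2 difference was -0.45 (SE 0.14) in Bmal1-/- cells with an adjusted p of 0.0191 (limma). The call depended on the setting, with the direction kept throughout. The adjusted p was 0.0044 when the fit held only WT and Bmal1-/- libraries, 0.0068 without Clock-/- replicate 2, 0.0048 without Clock-/- replicate 3, 0.0057 with libraries rescaled by the median ratio and 0.0011 with limma-voom on 466 to 946 reads per library. It was 0.0298 without Clock-/- replicate 1, 0.0657, 0.0534 and 0.0281 without WT replicates 1, 2 and 3, 0.0746, 0.0267 and 0.0345 without Bmal1-/- replicates 1, 2 and 3, 0.0385 with the chromosome median subtracted and 0.0344 with a replicate block. In Clock-/- cells the difference was -0.22 (SE 0.14, adjusted p = 0.235).

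Lgals1 encodes galectin-1, a prototype galectin abundant in stroma and muscle, and lies on chromosome 15 from 78926725 to 78930465. It was low in these cells, at 1.98, 3.41 and 1.60 TPM in WT, 0.881, 0.821 and 1.23 TPM in Bmal1-/- and 2.24, 3.03 and 4.04 TPM in Clock-/- libraries. The Bmal1-/- libraries were the lowest of the 9, and those of Clock-/- overlapped WT. The log2 differences from WT were -0.72 (SE 0.23, adjusted p = 0.0227) in Bmal1-/- and 0.31 (SE 0.23, adjusted p = 0.310) in Clock-/- cells. Compared directly, Lgals1 was lower in Bmal1-/- than in Clock-/- cells by a log2 difference of -1.03 (SE 0.23, adjusted p = 0.0033). Of the 6 galectins, 4 were tested besides Lgals2, and Lgals1 was the only 1 of these to pass, where 44.6% of all genes did. All 3 Bmal1-/- libraries were below all 3 Clock-/- libraries, as held for 31.1% of all genes. The difference rests on 5 to 6 reads per Bmal1-/- library and 11 to 16 per Clock-/- library. Without Bmal1-/- replicate 1 the adjusted p was 0.0138, without Bmal1-/- replicate 2 it was 0.0143 and without Clock-/- replicate 3 it was 0.0103.

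Lgals3 encodes the chimera-type galectin-3 (chromosome 14 from 47367751 to 47386160), which is typical of macrophages and epithelia. It was at 0.683, 1.65 and 1.18 TPM in WT, 0.759, 0.530 and 0.354 TPM in Bmal1-/- and 1.49, 1.52 and 0.761 TPM in Clock-/- libraries, all of which overlapped WT. Its log2 differences were -0.47 (SE 0.22, adjusted p = 0.0915) and 0.06 (SE 0.22, adjusted p = 0.850). Lgals4 encodes a tandem-repeat galectin of the gut epithelium (chromosome 7 from 28833854 to 28841708). Its levels were 1.03, 0.737 and 1.73 TPM in WT, 1.46, 1.70 and 1.14 TPM in Bmal1-/- and 1.83, 1.31 and 0.960 TPM in Clock-/- libraries. Its log2 differences were 0.19 (SE 0.21, adjusted p = 0.472) and 0.14 (SE 0.21, adjusted p = 0.645). Mouse Lgals4 has a close paralog, Lgals6, that is not analysed here, so the assignment of its reads is uncertain. Both genes rested on at most 36 reads in any library, so a change of modest size was not detectable at this depth.

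Lgals9 encodes a tandem-repeat galectin known as a ligand of the T-cell receptor TIM-3 and as a binder of GLUT2 (chromosome 11 from 78962974 to 78984946, minus strand). It had the lowest mean of the 6, at 0.891, 0.799 and 0.512 TPM in WT, listed at 0 in all 3 Bmal1-/- libraries, and at 0.153, 0.0944 and 0 TPM in Clock-/- libraries. No knockout library reached the lowest WT library. The same held for 35.1% of tested genes in Bmal1-/- and 25.8% in Clock-/- cells, but Lgals9 was too low to be among the tested genes. In reads the values were 12, 10 and 6 for WT, but 0, 0 and 0 for Bmal1-/- and 2, 1 and 0 for Clock-/- libraries. With 0 reads over the Bmal1-/- group, the exact 95% interval (Clopper-Pearson) allowed a level of up to 11.1% of WT. In Clock-/- cells it was at 12.3% of WT, with an exact 95% interval of 2.39% to 39.7%. Lgals9 entered the fit only when no filter was used (log2 differences -0.79, adjusted p = 1.9e-04, and -0.68, adjusted p = 8.3e-04) or with limma-voom (adjusted p = 3.7e-05 and 0.0029), and both are fitted values that depend on the prior count. Of 1205 genes with 20 to 40 reads over the WT libraries, 3.82% were at 0 in all Bmal1-/- libraries and 1.49% in all Clock-/- libraries. Lgals9, with 3 reads over the Clock-/- libraries, was not among the latter. More genes of the table were listed at 0 in Bmal1-/- libraries (2189 to 2691) than in WT libraries (687 to 905), although the deepest library was a Bmal1-/- library.

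**Figure D4:**
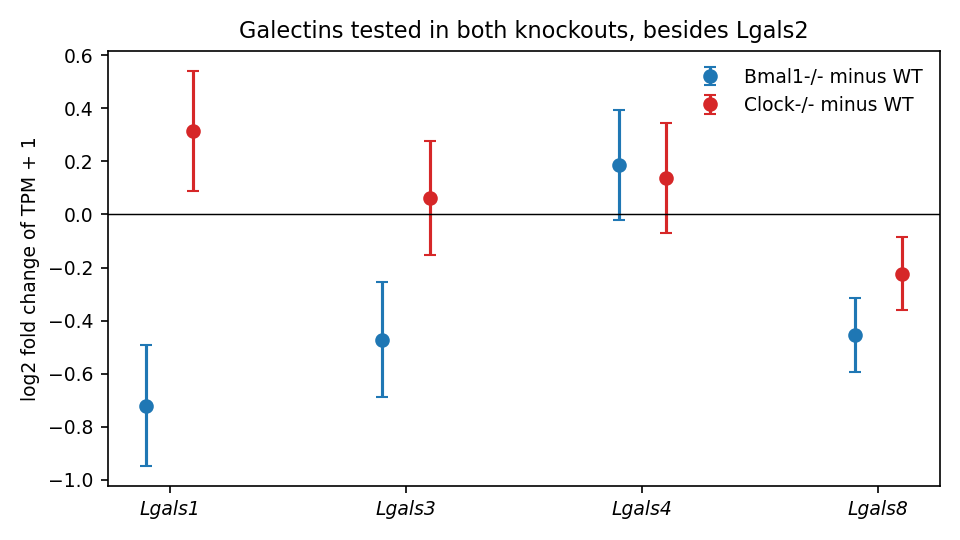
Points give the log2 difference of TPM + 1 from WT with its SE for the 4 galectins tested besides Lgals2, in Bmal1-/- and Clock-/- cells. In Bmal1-/- cells Lgals1, Lgals3 and Lgals8 lie at -0.72, -0.47 and -0.45, and none of the 8 points passed at an adjusted p under 0.01.

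In order of level, WT cells had Lgals2 above Lgals8, and Lgals8 above the other 4 with no overlap between libraries. Lgals1, Lgals3 and Lgals4 overlapped in WT and cannot be ordered beyond their spread. In both knockouts Lgals8 came first, again without overlap. In Bmal1-/- cells Lgals2, at 2.87 to 3.15 TPM, stood second, and in Clock-/- cells Lgals1, at 2.24 to 4.04 TPM, stood second. Of 5 further galectin-like genes looked for, the table held Lgals12 and Lgalsl. Lgals12, a galectin of adipocytes, was at 3.43, 2.40 and 1.51 TPM in WT, 0.153, 0.197 and 0.297 TPM in Bmal1-/- and 3.41, 2.69 and 2.99 TPM in Clock-/- libraries, and it fell in Bmal1-/- cells by 1.47 on the log2 scale (SE 0.20, adjusted p = 1.9e-04). Lgalsl, which encodes a galectin-related protein, averaged 5.61 ± 0.764 TPM in WT cells against 6.10 ± 0.473 in Bmal1-/- and 11.7 ± 0.227 in Clock-/- cells and rose only in the latter (log2 difference 0.95, SE 0.11, adjusted p = 1.6e-04). Compared directly, it was lower in Bmal1-/- than in Clock-/- cells by a log2 difference of -0.85 (adjusted p = 1.6e-04).

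The best-known galectin ligand of the β cell fell in both lines. Slc2a2, which encodes GLUT2, averaged 109 ± 6.25 TPM in WT cells against 42.8 ± 8.24 in Bmal1-/- and 6.80 ± 1.28 in Clock-/- cells, so the log2 difference from WT was -1.34 (adjusted p = 5.5e-05) in the former and -3.83 (adjusted p = 1.0e-07) in the latter. Mgat4a, the enzyme that adds the N-glycan branch by which GLUT2 is held to galectins, was at 3.71 ± 0.292, 1.55 ± 0.127 and 2.11 ± 0.269 TPM and fell in both (log2 differences -0.89, adjusted p = 2.6e-04, and -0.60, adjusted p = 0.0045). Its isoenzyme gene Mgat4b, which was more abundant, rose in both, from 40.4 ± 2.80 TPM to 72.6 ± 5.66 and 56.8 ± 3.83 (log2 differences 0.83, adjusted p = 3.3e-05, and 0.48, adjusted p = 0.0017). Lgals3bp, a secreted glycoprotein that binds galectin-3, rose in Bmal1-/- cells from the WT level of 87.7 ± 2.11 TPM to 128 ± 5.79 (log2 difference 0.54, adjusted p = 0.0014) and was at 87.9 ± 13.1 TPM in Clock-/- cells (adjusted p = 0.967).

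The enzymes that build galactose-ended branches moved in both directions. Of 24 listed N-glycan branching and poly-N-acetyllactosamine enzymes 18 were tested. In Bmal1-/- cells 3 rose and 8 fell, where 18.4% of all genes rose and 21% fell, and the median log2 difference was -0.15 against -0.04 over all genes. For Clock-/- cells 2 rose and 5 fell, where 9.5% of all genes rose and 14.4% fell, and the median was -0.19 against -0.02. The number that rose in Bmal1-/- cells was near the share over all genes. Mgat4b rose in both, and 4 fell in both, namely Mgat4a, B4galt3, B3gnt9 and Gcnt1. Gcnt1, which starts the core 2 branch of O-glycans, averaged 8.70 ± 0.112 TPM in WT cells against 1.83 ± 0.517 in Bmal1-/- and 3.68 ± 0.766 in Clock-/- cells (log2 differences -1.79 and -1.06). Gcnt2, which branches poly-N-acetyllactosamine, fell from 40.8 ± 1.17 to 18.3 ± 1.07 TPM in Bmal1-/- cells (log2 difference -1.12, adjusted p = 6.3e-06) and was at 32.5 ± 3.47 in Clock-/- cells (adjusted p = 0.0176). Man2a1, which trims N-glycans before branching, rose in Bmal1-/- cells (log2 difference 0.96, adjusted p = 2.7e-04).

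B3gnt3 and St6gal1 moved in opposite directions in the 2 lines, and Mgat3 and St3gal1 fell in Clock-/- cells. Mgat3, whose bisecting N-acetylglucosamine limits branching, averaged 16.5 ± 0.693 TPM in WT cells against 21.8 ± 0.504 in Bmal1-/- and 2.16 ± 0.538 in Clock-/- cells, where it fell by 2.49 on the log2 scale (adjusted p = 4.3e-07). The Bmal1-/- level of Mgat3 did not pass against WT (adjusted p = 0.0249) but was above that in Clock-/- cells by a log2 difference of 2.86 (adjusted p = 1.0e-07). B3gnt3, which extends N-acetyllactosamine chains, fell in Bmal1-/- cells from 51.0 ± 2.27 to 28.2 ± 2.74 TPM and rose in Clock-/- cells to 83.8 ± 8.39 TPM (adjusted p = 1.2e-06 between the knockouts). St6gal1, which caps galactose with α2,6-sialic acid and so hides it from most galectins, averaged 10.7 ± 0.331 TPM in WT cells against 17.9 ± 0.862 in Bmal1-/- and 2.93 ± 0.520 in Clock-/- cells. Its log2 difference from WT was 0.69 (adjusted p = 6.8e-04) in Bmal1-/- and -1.58 (adjusted p = 5.9e-06) in Clock-/- cells. St3gal1 fell in Clock-/- cells from 39.5 ± 2.91 to 10.3 ± 3.43 TPM (log2 difference -1.88, adjusted p = 5.3e-05) and was at 33.2 ± 2.98 TPM in Bmal1-/- cells (log2 difference -0.24, adjusted p = 0.311). Of 9 tested sialyl- and fucosyltransferases 3 rose and 3 fell in Bmal1-/- cells, where 18.4% of all genes rose and 21% fell, and 0 rose and 4 fell in Clock-/- cells, where 9.5% rose and 14.4% fell. The medians were -0.01 and -0.06.

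**Figure D5:**
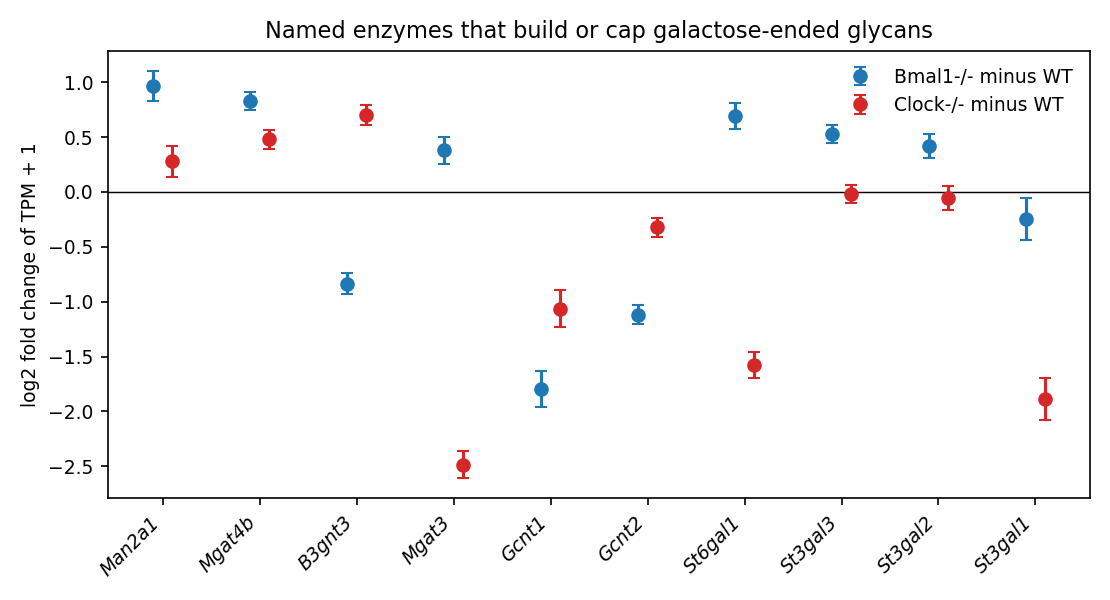
Points give the log2 difference of TPM + 1 from WT with its SE for the named enzymes that build or cap galactose-ended glycans, in Bmal1-/- and Clock-/- cells. Mgat3, St6gal1 and St3gal1 lie at -2.49, -1.58 and -1.88 in Clock-/- cells, and Gcnt1 is below 0 in both.

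Glycoproteins bound by galectins moved in both directions. Of 39 listed 30 were tested, of which 8 rose and 10 fell in Bmal1-/- cells (median log2 difference -0.17), where 18.4% of all genes rose and 21% fell. For Clock-/- cells 2 rose and 9 fell (median -0.08), where 9.5% of all genes rose and 14.4% fell. The laminin genes Lama5 and Lamb1 rose in both. Those that fell in both were Slc2a2, Egfr, Igf1r, Itga6, Cd47 and Dpp4, and Egfr went from 11.1 ± 0.693 TPM in WT to 4.21 ± 0.243 and 4.45 ± 1.38. Mcam, an adhesion glycoprotein, rose from 5.32 ± 0.375 to 13.1 ± 0.580 TPM in Bmal1-/- cells (adjusted p = 4.3e-05) and fell to 2.38 ± 0.479 TPM in Clock-/- cells (adjusted p = 3.7e-04). Cdh1, which encodes E-cadherin, fell from 7.12 ± 0.590 to 1.81 ± 0.210 TPM in Bmal1-/- cells (adjusted p = 2.7e-05), and Fn1, which encodes fibronectin, rose there from 2.45 ± 0.218 to 5.72 ± 0.0982 TPM (adjusted p = 2.9e-04).

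Genes of the damaged-vesicle response, in which galectin-8 and galectin-3 take part, rose in part in Bmal1-/- cells. Of 13 tested 8 rose and 1 fell there, where 18.4% of all genes rose and 21% fell, and the median log2 difference was 0.32 against -0.04 over all genes. In Clock-/- cells 1 rose and 0 fell, where 9.5% of all genes rose and 14.4% fell, and the median was 0.10 against -0.02. Those that rose included genes of the LC3 and GABARAP family, which label autophagosomes, and Sqstm1, a cargo receptor of autophagy. Map1lc3a was at 183 ± 21.3 TPM in Bmal1-/- cells against 74.7 ± 4.49 in WT (log2 difference 1.28, adjusted p = 3.3e-06) and was at 97.2 ± 6.77 TPM in Clock-/- cells (adjusted p = 0.0102). Tfeb, the transcription factor of lysosomal genes, went from 5.35 ± 0.271 to 14.7 ± 1.61 TPM in Bmal1-/- cells (adjusted p = 8.1e-06) and was at 7.33 ± 0.420 TPM in Clock-/- cells (adjusted p = 0.0176). Compared directly, 4 of the 13 were higher in Bmal1-/- than in Clock-/- cells and 0 lower, where 22.8% of all genes were higher and 21.8% lower. The number that was higher was near the share over all genes. Tax1bp1, a cargo receptor, was the gene that fell in Bmal1-/- cells (log2 difference -0.31, adjusted p = 0.0095).

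THRAP3 peaks near galectin starts are given beside the shares over all genes, and with 6 genes the counts were not tested against those shares. The authors called peaks in each library, 808 and 6128 in the WT libraries and 12949 and 12226 in the Bmal1-/- libraries. Within 10 kb of a start, 0 of 6 galectins had a peak centre in either WT library, where 2.15% and 15.7% of all genes had one. In the Bmal1-/- libraries the counts were 1 and 0 of 6, where 34.9% and 30.5% of all genes had one. The single case was Lgals3, with a peak at chr14:47371625-47371873 in Bmal1-/- replicate 1. The peak lay in an intron, 3.998 kb downstream of the most upstream annotated start and 2.11 kb upstream of the RefSeq start. It had 9.42 normalized tags and a fold over input of 5.41. At the Lgals2 start no peak came closer than 307 kb in either WT library, and in Bmal1-/- replicate 1 the nearest lay 175 kb away. In Bmal1-/- replicate 2 it lay 22.0 kb away, at chr15:78877408-78877652 in an exon of Gga1 and 0.34 kb from the Gga1 start.

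The peak called most often near a galectin lay 17.7 kb upstream of Lgals9, between genes. It was found in WT replicate 1 (10.6 normalized tags, fold over input 4.37), WT replicate 2 (27.9 tags, fold 11.6) and Bmal1-/- replicate 1 (12.6 tags, fold 4.81), while in Bmal1-/- replicate 2 the nearest peak was 161 kb away. Its sequence is shown since no other peak within 50 kb of a galectin was called with overlapping bounds in 3 of 4 libraries. The plus strand of chr11:79002504-79002716 on GRCm38.p6 is given as called in WT replicate 1, with the 116 bases common to all 3 calls in capitals.
Peak upstream of Lgals9: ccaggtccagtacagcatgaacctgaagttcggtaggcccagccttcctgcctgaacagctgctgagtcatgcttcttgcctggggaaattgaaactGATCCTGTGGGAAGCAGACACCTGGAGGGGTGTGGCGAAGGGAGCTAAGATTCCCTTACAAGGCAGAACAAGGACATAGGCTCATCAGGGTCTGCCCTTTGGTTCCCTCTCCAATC
The AP-1 letters TGAGTCA, the reverse complement of TGACTCA, stood at chr11:79002567-79002573, outside the common stretch, and within the calls of WT replicate 1 and Bmal1-/- replicate 1 but not that of WT replicate 2. They were in 30.3% of all peaks of WT replicate 1 and in 13.8%, 9.65% and 10.6% of those of WT replicate 2 and Bmal1-/- replicates 1 and 2.

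Farther away, peaks were found near each of the 6 galectins in at least 1 library. Lgals4 had peaks 24.8 kb upstream in WT replicate 2, 12.3 and 24.7 kb upstream in Bmal1-/- replicate 1 and 23.1 kb upstream in Bmal1-/- replicate 2, all of them within Hnrnpl, a splicing factor gene. Lgals8 had a peak 38.7 kb upstream in Bmal1-/- replicate 1 and one 38.8 kb upstream in replicate 2, both in an intron of Edaradd, and none within 50 kb in WT. From the RefSeq start of Lgals8 these peaks lay 41.9 and 42.0 kb upstream. Within 50 kb the number of galectins with a peak was 1 and 2 of 6 in the WT libraries and 4 and 4 of 6 in the Bmal1-/- libraries, where 6.18%, 36.9%, 62.8% and 58.8% of all genes had one. The number of peaks called in WT replicate 1 was far below the others, and counts move with how much was called.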

How the data were processed

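RNA libraries were grouped by their labels (3 WT, 3 Bmal1-/- and 3 Clock-/-). The authors aligned paired reads to mm10 with STAR 2.5.0, counted them over exons with featureCounts 1.5.3 and deposited TPM per gene, and the tables of their own DESeq2 comparisons (fold changes and p-values) were not used. THRAP3 peaks, aligned with Bowtie2 2.2.4, are HOMER calls per library over pooled input, with the normalized tag signal and the fold over input as the authors deposited them.

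Of the 20599 gene IDs 20499 matched a symbol in GENCODE vM21. Genes at 1 TPM or more in 3 or more of the 9 libraries were fitted as log2(TPM + 1) with limma 3.58.1 (R 4.3.3; eBayes with trend, 1 fit over the 3 genotypes), and p-values were adjusted over all 15031 tested genes by Benjamini-Hochberg. "Rose" and "fell" mean an adjusted p under 0.01, and a called gene also has an absolute log2 difference above 1. A fold change on this scale understates the change of low genes. The fit was tested on simulated data. Reads were recovered as TPM times exon length for 15767 genes whose annotation version matched, where 100% of values were whole within 0.02, and limma-voom on 15770 genes with at least 10 such reads was added as an alternative after seeing the data. For a galectin with another annotation version, the exon length was the one that made all 9 values whole.

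The galectins, the gene lists and the tests were chosen with earlier results of these data known. Named genes were the 6 galectins, up to 3 list genes per direction at a mean of at least 5 TPM, the 5 genes most like Lgals2, genes within 250 kb of Lgals2 or Lgals1, and Slc2a2, Mgat4a and Lgals3bp. Other list genes, Lgals12 and markers were named after their values were seen. Motifs and promoters were read with Python 3.11.15. Endothelial, duct, acinar, intestinal and other endocrine markers gave sums that are printed with the limits. The eCLIP libraries and ChIP inputs were not analysed here.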

Additional observations from a re-analysis of the deposited data

How the results depend on the processing

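Gene-level calls depended on the filter. With a mean TPM of at least 5 required, 1060, 566 and 1325 genes were called in Bmal1-/- against WT, Clock-/- against WT and Bmal1-/- against Clock-/- cells, where 1773, 1113 and 2182 had been, and limma-voom called 2725 and 3670 in the first and last. Of the 6 galectins with Lgals2 left out, 0 had passed in Bmal1-/- against WT. This became 1 with no filter (Lgals9), 1 with rescaled libraries, 1 with only the 2 groups compared and 2 with limma-voom, and it ranged from 0 to 1 when each library was left out. In Clock-/- against WT the 0 became 1 with no filter and 1 with limma-voom, in both cases Lgals9. Between the knockouts the 1 (Lgals1) became 0 with the mean TPM filter, by which it was not tested, and ranged from 0 to 1 when each library was left out. Replicate numbers do not pair the libraries (deviations correlated at -0.208 to 0.0742 for the same number and -0.163 to 0.212 otherwise), and a replicate block gave 1758, 1089 and 2155 calls and changed no galectin call. The count of 1 galectin with a THRAP3 peak within 10 kb became 0 at 1 kb, 6 at 50 kb and 0 at a fold over input of at least 8, and ranged from 0 to 1 when each library was left out. The 2 galectins with a peak shared by both replicates of a genotype (Lgals8 and Lgals9) became 0 when centres had to lie within 100 bases. No galectin difference that passed in any fit changed direction. The causes were not tested. Depth limits Lgals1, Lgals3, Lgals4 and Lgals9, which rested on at most 36 reads per library. Summed markers of other cells in WT, Bmal1-/- and Clock-/- libraries were 155 to 160, 15.3 to 21.2 and 74.98 to 79.7 TPM for duct, 48.9 to 54.7, 11.8 to 15.4 and 20.6 to 27.5 for acinar, 34.7 to 42.6, 16.4 to 20.9 and 15.7 to 18.6 for intestinal, 8.53 to 10.04, 5.24 to 5.29 and 3.35 to 4.68 for endothelial and 576 to 594, 128 to 143 and 1520 to 1695 for other endocrine lists, and their part in the results was not tested.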
